A study of Drosophila melanogaster with 3 samples.

Results

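A set of 10 genes of the ecdysone response was examined for binding of Stwl-GFP, and they held 37 of the 7241 binding summits that passed the irreproducible discovery rate (IDR), the measure of agreement between replicates used by the authors. The genes are the receptor gene EcR, its partner gene usp, the early genes br, Eip74EF and Eip75B, the further response genes Eip78C and Eip93F, and the nuclear receptor genes Hr3, Hr4 and ftz-f1. A summit, the point of highest signal in a peak, was given to a gene when it lay inside the gene or within 10 kb of one of its transcription start sites (TSSs). The 10 genes were chosen by name after signal values of these same peak lists, among them the EcR peak, were already known, so their levels are a description and no test over them was made. The series holds 1 group, Stwl-GFP embryos, with 3 biological replicates: chromatin was immunoprecipitated with an antibody against GFP and sequenced (ChIP-seq) from whole Drosophila melanogaster embryos 0 to 10 hours old. The embryos came from a transgenic line in which stwl carries GFP at the C-terminal end, with an insertion aimed at stwl, and chromatin was cut by sonication to 200 to 800 bp. No untagged or mutant embryos are among the samples, and whole embryos of mixed age hold many cell types, so a peak does not say in which cells the protein was bound.

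The steroid hormone 20-hydroxyecdysone acts through a heterodimer of 2 nuclear receptors, EcR and Usp, that sits on DNA and switches target genes on when the hormone is bound. Its first targets are a small set of genes for transcription factors, the early genes, found as puffs of the larval salivary gland chromosomes, and their products act on later genes in a timed order. Ecdysone pulses drive moulting and metamorphosis, and a pulse in the embryo precedes the formation of the larval cuticle. Stwl, or Stonewall, has a MADF DNA-binding domain, acts in the nucleus, and is needed in the ovary to keep germline stem cells.

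Of the 10 genes, 9 had an IDR summit in reach and 1, Eip93F, had none. Among all 13945 protein-coding genes of the main chromosome arms, 10697 had one by the same rule, which is 76.7%, so a count of 9 of 10 lies near the background. EcR, usp, Eip75B and ftz-f1 were bound at a promoter, that is, an IDR summit lay 500 bp or less from one of their own TSSs. That made 4 of 10 genes, beside 42.1% of all protein-coding genes. Summits inside the gene and over 500 bp from its TSSs were found in 7 of 10 genes, beside 7.79% of all protein-coding genes. The members are long, with 9 of them spanning 30 kb or more, and the share depends on the span: of the 663 protein-coding genes of that length, 52.6% had such an inner summit, beside 7 of the 9 long members. A promoter summit was found at 3 of those 9, beside 43.9% of the long genes.

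**Figure D1:**
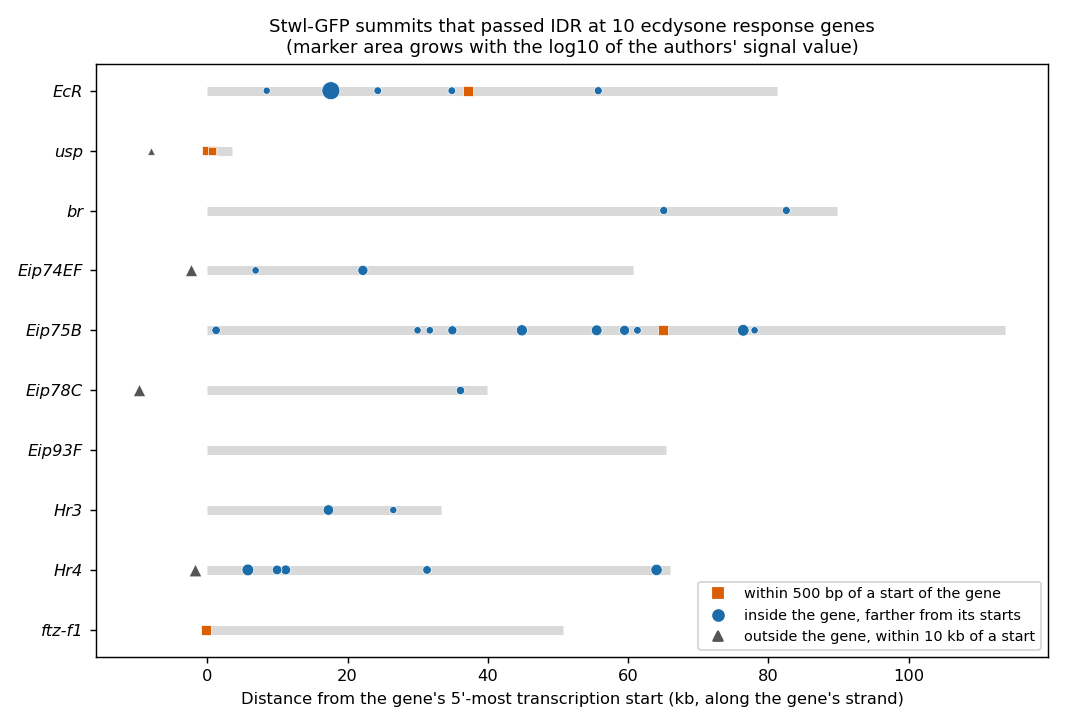
IDR summits along the 10 genes, with the distance from the 5′-most start of each gene in kb on the x axis and 1 line per gene, the grey bar being the gene. Of the 37 summits, 31 lie inside a gene, 6 lie within 500 bp of a start of the gene (squares), and the large marker is the EcR intron summit.

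By position, the summits of these genes were mostly intronic. Introns of the members held 27 of the 37 summits (73.0%, 95% Wilson interval 57.0 to 84.6%). Within 500 bp of a TSS of any gene lay 10 of the 37 (27.0%, 15.4 to 43.0%), beside 68.1% of all IDR summits (67.1 to 69.2%). These intervals cover counting error only, and summits of 1 gene are not independent. The rule takes in every summit inside a gene, and 9 of the 10 members span 30 kb or more. Neither share is given here for other genes of that length, so neither is read as particular to the members. Inside the genes the density was 5.13 summits per 100 kb (exact Poisson interval 3.49 to 7.28, 31 summits), beside 2.55 in protein-coding genes of 30 kb or more (2.40 to 2.70) and 3.42 in all protein-coding genes (3.30 to 3.54). Eip75B weighs heavily in that value, since without it the density in the members was 4.08 per 100 kb (2.49 to 6.30). With the 10 kb around the TSSs included, the members had 5.20 summits per 100 kb (3.66 to 7.17), beside 6.08 for all protein-coding genes (5.94 to 6.22).

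Most of these summits were of modest strength. The median signal of the 37 was 319.1, in a range from 195.7 to 13599.5, beside a median of 416.0 for all IDR summits. Signal is the authors' own signal value per peak, on a scale particular to each list. The signals given here are those of the IDR list unless a replicate is named. The summits over 500 bp from any TSS inside the members had a median signal of 269.9 (27 summits), beside 316.6 for the 1473 such summits inside protein-coding genes. Only 12 of the 37 lay above the median of the IDR list. The median peak width was 321 bp, beside 320 bp for all IDR peaks, and the GC content within 100 bp of the summit had a median of 39.3%, beside 37.3% for all IDR summits.

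The 3 replicates were compared through the 7241 strongest summits of each list, with a match counted within 150 bp. In all 3 replicates, 17 of the members' 37 summits had a match (45.9%, 31.0 to 61.6%), beside 67.6% of all IDR summits (66.5 to 68.7%). For summits over 500 bp from any TSS the counts were 10 of 27 inside the members (37.0%, 21.5 to 55.8%) and 1273 of 2307 in the whole list (55.2%, 53.1 to 57.2%). When all 30000 peaks of each list were allowed, 35 of the 37 had a match in every replicate, beside 90.9% of all IDR summits. Since the lists have scales of their own, the signal of a replicate was divided by the median of its peaks that match IDR summits, and this relative signal is 1 at a typical site. Across the members' summits, Spearman's rho of the replicate signals was 0.73 between replicates 1 and 2 (35 summits), 0.73 between 1 and 3 (36 summits) and 0.79 between 2 and 3 (36 summits), given as a description, since these points share genes and libraries.

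**Figure D2:**
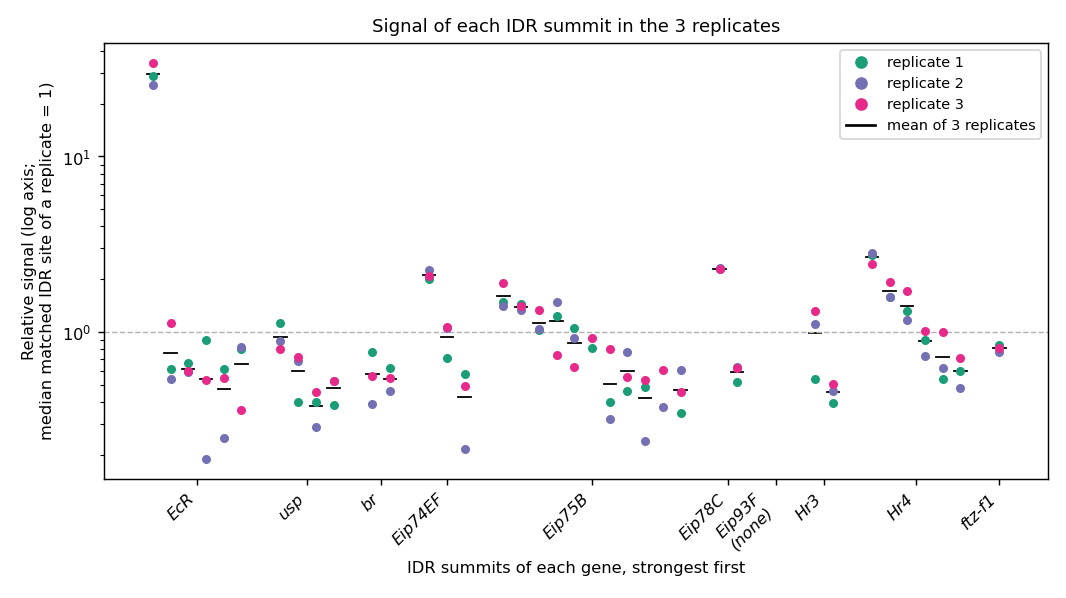
Relative signal (log axis) of every IDR summit of the members in the 3 replicates, grouped by gene and sorted by signal within it, where 1 (dashed line) is the median matched IDR site of a replicate and bars are means of 3 replicates. The strongest EcR summit lies between 25.5 and 34.3 in the replicates, and the next strongest, that of Hr4, between 2.43 and 2.83.

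EcR encodes the ecdysone receptor, and its gene carried the most strongly bound site of the 10 genes. The gene (FBgn0000546, chr2R:6087873-6169087, minus strand, 4 TSSs) held 6 IDR summits, 5 of them in introns. Its strongest summit, at position 6151462 in a peak of 1112 bp (chr2R:6150930-6152041), lay in an intron, 5667 bp downstream of the EcR TSS at 6157129. The stretch around the summit without an exon of any EcR transcript was 19907 bp long. It ended next to another EcR TSS, at 6131922, so it is not the length of an intron of a given transcript. The relative signal was 28.9 in replicate 1, 25.5 in replicate 2 and 34.3 in replicate 3. All 3 values lie far above those of every other summit of the members, and the summit had rank 2 in the IDR list and in each of the 3 replicate lists. Its signal of 13599.5 was 34.6 times that of the second EcR summit, and only 17 of the 7241 IDR peaks were wider. EcR stood at the 99.97th percentile of the strongest signal per gene among the 10697 genes with an IDR summit, and this value is a description, since the peak was known when the genes were chosen.

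Several tRNA genes lie within the span of EcR, and the nearest annotated TSS of any kind to the strong EcR summit was that of tRNA:Asn-GTT-1-1, 1214 bp away. In all, 13 of the 290 annotated tRNA genes lie there. Of the 7241 IDR summits, 55 (0.76%) lay within 2 kb of the middle of a tRNA gene, and 2 of these were EcR summits. What the tRNA genes have to do with the signal was not tested.

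The other EcR summits were below the median signal of the IDR list. The second, at 6131886 with a signal of 392.6, lay 36 bp from another EcR TSS in the 5′ UTR. Its relative signal was 0.615 in replicate 1, 0.542 in replicate 2 and 1.13 in replicate 3, so that it exceeded the typical site in 1 replicate. The remaining 4 were intronic and weak, with signals between 195.7 and 238.2 and ranks from 6151 to 7197 of 7241, and the weakest of them, at 6160612, was close to the lowest signal of the IDR list, 194.5. At the 5′-most EcR start itself no IDR summit lay within 500 bp. The pooled list, which goes below the IDR threshold, had a weaker summit 438 bp upstream of it with a signal of 160.4 and rank 8401.

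Among IDR summits in introns and over 2 kb from the TSS of any protein-coding gene, the EcR summit was the strongest, and the next 3 genes were pb, the Hox gene proboscipedia, with a signal of 5993, CG14669 with 3981, and CG6051 with 3748. EcR exceeded them by 2.27, 3.42 and 3.63 times. Counted from TSSs of genes of any kind, the EcR summit would fall outside this class, since that of tRNA:Asn-GTT-1-1 lies 1214 bp away. The EcR peak was known beforehand, so its place in this order is a description. The pb and CG14669 summits were nearest to TSSs of other genes, Ccp84Aa at 4990 bp and CG12147 at 11691 bp. The mean relative signal was 29.6 ± 4.43 for EcR, beside 13.9 ± 0.327 for pb, 9.72 ± 0.715 for CG14669 and 8.64 ± 0.986 for CG6051 (SD, n = 3 replicates each). The replicate values of EcR and pb did not overlap.

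**Figure D3:**
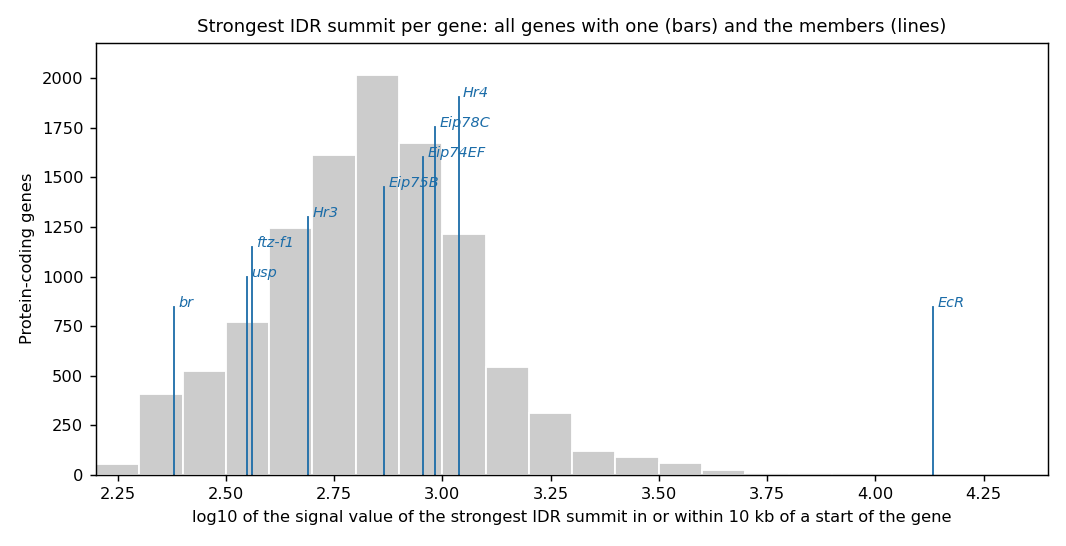
Distribution over protein-coding genes of the log10 signal of the strongest IDR summit in reach (bars, 10697 genes with one), with the 9 members that have a summit drawn as lines whose heights have no meaning. EcR lies near the right end, with 3 genes in the bar to its right. The other 8 members lie between 240.5 (br) and 1090.2 (Hr4), within the bulk of the genes, whose median is 683.1.

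usp encodes Ultraspiracle, the RXR-type partner of EcR, and is the only short gene of the set, with a span of 3514 bp on the minus strand (FBgn0003964, chrX:2038798-2042311). It had 4 IDR summits in reach, and 3 of them were within 500 bp of its TSSs. The strongest, at 2042436 with a signal of 353.5, lay 125 bp upstream of usp and equally near a TSS of Actn, the alpha-actinin gene. Its relative signal was 1.13 in replicate 1, 0.888 in replicate 2 and 0.799 in replicate 3, close to a typical site in all of them. The next 2, at 2041478 in the 5′ UTR with a signal of 272.2 and at 2041688 in an intron with 226.5, are 1 peak in replicate 1. The weakest, at 2050264, lay 144 bp from the TSS of moody, which encodes a receptor of the glial blood-brain barrier, and 7953 bp from that of usp.

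br encodes the Broad family of zinc finger transcription factors, which specify the pupal stage, and was weakly bound. The gene (FBgn0283451, chrX:1575132-1664869, plus strand) has 9 TSSs, and none of them had an IDR summit within 500 bp. Its 2 IDR summits were intronic, at 1640206 and 1657685, and both also lie within the annotated span of Mur2B. The first had a relative signal of 0.767 in replicate 1, 0.391 in replicate 2 and 0.564 in replicate 3, and the second had 0.622, 0.460 and 0.544 in the same order. All 6 values lie under the typical site, and neither summit was among the strongest of all 3 replicates. Of the 10697 genes with an IDR summit, 10323 had a strongest signal at or above the 240.5 of br.

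Some inner summits of Eip75B, Eip74EF and Hr4 shared a short sequence, which is why their windows are shown here together with a summit each of Eip78C and ftz-f1, which lack it. Each window is 201 bp of the plus strand of dm6, 5′ to 3′, centred on the summit and read from the RefSeq Release 6 genome. Capitals mark matches, on either strand, to TGGCGCC, to AAGTATGC with AAAGTATG, which overlap by 7 letters, or, in ftz-f1, to TATCGATA with ATCGATAG and ATCGATAA, which overlap it. TGGCGCC next to A also matches on the other strand, so that 8 letters are in capitals there. None of the 6 windows overlaps an annotated exon.
Eip75B, chr3L:17988191-17988391: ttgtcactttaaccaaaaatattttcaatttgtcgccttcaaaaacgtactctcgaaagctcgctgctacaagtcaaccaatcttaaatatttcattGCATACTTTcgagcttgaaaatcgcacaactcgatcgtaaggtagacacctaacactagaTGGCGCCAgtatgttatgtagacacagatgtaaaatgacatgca
Eip75B, chr3L:18019742-18019942: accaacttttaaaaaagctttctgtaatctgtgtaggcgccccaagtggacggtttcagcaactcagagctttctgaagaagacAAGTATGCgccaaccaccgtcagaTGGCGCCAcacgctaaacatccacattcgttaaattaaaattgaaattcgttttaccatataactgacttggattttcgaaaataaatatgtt
Eip74EF, chr3L:17597040-17597240: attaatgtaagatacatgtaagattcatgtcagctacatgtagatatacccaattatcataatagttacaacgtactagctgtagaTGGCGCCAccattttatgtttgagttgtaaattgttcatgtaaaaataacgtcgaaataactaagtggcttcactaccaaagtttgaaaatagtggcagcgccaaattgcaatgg
Hr4, chrX:1953024-1953224: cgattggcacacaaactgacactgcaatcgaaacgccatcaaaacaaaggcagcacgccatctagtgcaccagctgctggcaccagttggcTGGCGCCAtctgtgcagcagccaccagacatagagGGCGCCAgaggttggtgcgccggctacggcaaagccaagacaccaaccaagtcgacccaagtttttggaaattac
Eip78C, chr3L:21262582-21262782: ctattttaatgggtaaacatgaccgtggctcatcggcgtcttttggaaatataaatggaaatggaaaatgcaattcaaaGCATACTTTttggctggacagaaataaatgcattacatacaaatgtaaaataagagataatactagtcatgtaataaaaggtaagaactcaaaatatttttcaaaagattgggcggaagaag
ftz-f1, chr3L:18801421-18801621: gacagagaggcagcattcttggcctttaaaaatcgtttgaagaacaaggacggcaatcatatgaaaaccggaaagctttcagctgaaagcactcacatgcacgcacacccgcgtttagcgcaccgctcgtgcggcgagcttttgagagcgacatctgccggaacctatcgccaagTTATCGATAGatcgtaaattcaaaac

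TGGCGCC was noticed in the members' own windows, so its count there and the signals with and without it are a description. Within 100 bp of the summit it was present at 6 of the 37 summits (16.2%), beside 4.28% of all IDR summits and 2.38% of windows of the same length 1000 bp to either side of all IDR summits. Among IDR summits over 500 bp from any TSS it was at 5.37%, beside 5 of the 27 such summits inside the members. Besides the 4 windows printed, it lay at the Hr4 summit 2005990 and the usp summit 2041688. In the window Hr4 1953124 it occurred at 2 places, with its middle 6 and 29 bp from the summit, and in Eip75B 18019842 and Eip74EF 17597140 it was 11 bp from the summit. It was farther away at Hr4 2005990, by 21 bp, at Eip75B 17988291, by 60 bp, and at usp 2041688, by 62 bp. Among summits inside the members and over 500 bp from any TSS, the 5 with TGGCGCC had signals from 395.6 to 732.7 (median 606.5). The 22 without it, EcR included, had signals from 195.7 to 13599.5 (median 239.3). In the whole IDR list the summits over 500 bp from any TSS had a median signal of 400.1 with TGGCGCC (124 summits) and 320.0 without it (2183 summits). AAGTATGC, the 8-mer with the largest excess over flanks in percentage points at such summits outside the members, was present at 3 of the 37 (8.11%), beside 2.64% of all IDR summits and 6.50% of those over 500 bp from any TSS. The 3 are both Eip75B windows and the Eip78C window printed above.

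Binding sequences of the ecdysone pathway itself were searched for at the same summits. AGGTCA, the hexamer that nuclear receptors bind, lay within 100 bp of 2 of the 37 summits (5.41%), both in Eip75B, searched on both strands. It was at 3.78% of all IDR summits, 4.77% of those over 500 bp from any TSS and 5.50% of flanks, so the members' share lies near the background. TCAAGGTCA, the extended site of the Ftz-F1 type, which contains AGGTCA, was at 0 of 37, beside 0.0967% of all IDR summits. The hexamer as an inverted repeat with 1 base between, the form bound by EcR and Usp, was not found in these exact letters at any of the 7241 summits. It was not found in their flanks either. Inexact forms of this repeat were not searched for, so nothing is read from its absence. GAGAG, the core of the GAGA factor site, was at 14 of 37 (37.8%), beside 19.8% of all IDR summits and 22.0% of flanks. Among IDR summits over 500 bp from any TSS, GAGAG was at 25.2%, beside 11 of the 27 such summits inside the members. CACGTG was at 2 of 37 (5.41%, beside 2.76%), CCGCC at 8 of 37 (21.6%, beside 18.5%), and CAGGTAG, the Zelda site, at 0 of 37 (beside 0.594%). Of the 8-mers that lead in the whole IDR list, TATCGATA, the DRE, was at 1 of 37, that of ftz-f1, beside 12.01% of all IDR summits and 3.38% of those over 500 bp from any TSS. GGTCACAC was at 0 of 37, beside 11.2% of all and 5.50% of those far from a TSS, and AGTGTGAC was at 0 of 37, beside 9.63% and 5.16%. CAACACTG was at 1 of 37, that of Hr4 1973269, beside 6.56% of all IDR summits and 5.94% of those far from a TSS. Among summits over 500 bp from any TSS outside the members, its excess over flanks was the next largest after that of AAGTATGC. Since 27 of the 37 lie far from any TSS, the shares among such summits are the nearer background, and no result about the members is read from these counts.

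Eip74EF encodes E74, an ETS-domain factor of the early response (FBgn0000567, chr3L:17558672-17619325, minus strand, 3 TSSs). Its strongest summit in reach, at 17621674 with a signal of 902.7 and rank 832, lay 2349 bp upstream of the gene but 49 bp from the TSS of Vps60, a gene of endosomal sorting. The relative signal there was 2.00 in replicate 1, 2.25 in replicate 2 and 2.08 in replicate 3. Inside Eip74EF the strongest was the printed intron summit 17597140, 20514 bp from the nearest Eip74EF TSS, with a signal of 429.0. Its relative signal was 0.709 in replicate 1, 1.05 in replicate 2 and 1.07 in replicate 3, lowest in the first replicate. The third summit, at 17612432, was intronic with a signal of 201.3, and in replicate 2 its nearest peak had rank 21793.

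Eip75B encodes E75, a nuclear receptor of the early response that binds heme, and it held the most summits of the 10 genes (FBgn0000568, chr3L:17950953-18064696, minus strand, 7 TSSs). All 11 IDR summits lay inside the gene and 10 of them in introns. Of the 11, 5 had a match among the strongest peaks of all 3 replicates. Of the 663 genes of 30 kb or more, kirre with 22 and CG1677 with 19 had more inner summits, and hth, bbg and bun had as many. The strongest, the printed summit 17988291 with a signal of 732.7 and rank 1363, lay 11530 bp downstream of the nearest Eip75B TSS. Its relative signal was 1.49 in replicate 1, 1.41 in replicate 2 and 1.89 in replicate 3, above the typical site each time. The printed summit 18019842, with a signal of 606.5, had 1.44 in replicate 1, 1.33 in replicate 2 and 1.41 in replicate 3, above the typical site each time as well. Above the median of the IDR list were also the intron summits 18009182, with a signal of 536.4, and 18005209, with 419.7. The summit 17999780, with a signal of 330.7, was the promoter summit of the gene, 41 bp from a TSS in the 5′ UTR. The other 6 had signals from 199.8 to 319.1. Among them 18029754 had no match in the list of replicate 2 and 18034717 none in that of replicate 1. The non-coding RNA genes lncRNA:CR45921 and lncRNA:CR45922 have the nearest TSS of any kind to 4 of the 11 summits, at 3563 to 6450 bp.

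**Figure D4:**
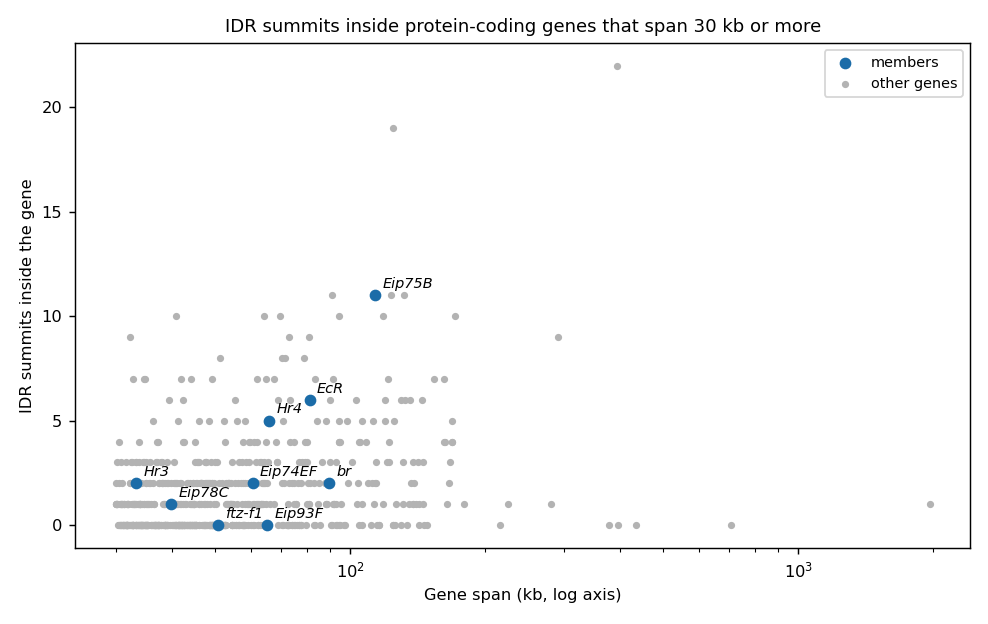
Number of IDR summits inside each of the 663 protein-coding genes that span 30 kb or more, against the span in kb (log axis), with the 9 long members in blue and the other genes in grey. Eip75B has 11, EcR 6 and Hr4 5, while ftz-f1 and Eip93F have 0.

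Eip78C, a nuclear receptor gene related to Eip75B, had 2 summits in reach (FBgn0004865, chr3L:21226609-21266503, plus strand). The strongest, at 21216875 with a signal of 961.3 and rank 710, lay 26 bp from the TSS of Ilk, the integrin-linked kinase gene, and 9734 bp upstream of Eip78C, just inside the 10 kb limit. The relative signal there was 2.28 in replicate 1, 2.30 in replicate 2 and 2.28 in replicate 3, the smallest spread of the strongest summits of the members. Inside the gene lay 1 intron summit, the printed 21262682, 22335 bp from the nearest Eip78C TSS and 4662 bp from that of CG43218. It had a signal of 259.7. Its relative signal was 0.515 in replicate 1, 0.632 in replicate 2 and 0.626 in replicate 3, all under the typical site.

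Eip93F encodes E93, a factor that directs the death of larval tissue and the adult programme, and it was the 1 member with no IDR summit. The gene is not short (FBgn0264490, chr3R:21949114-22014539, plus strand, 65426 bp). The pooled list had 12 summits in reach, of which the strongest, in the 3′ UTR at 22008276, had a signal of 83.0 and rank 15154. Its nearest peaks had rank 17987 in replicate 1, 28396 in replicate 2 and 19657 in replicate 3. None of the 7241 strongest peaks of any replicate was in reach of Eip93F.

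Hr3 encodes a nuclear receptor of the ROR type that acts in the switch from early to mid-prepupal genes, and it had 2 intronic summits (FBgn0000448, chr2R:10203995-10237348, minus strand, 3 TSSs). The stronger, at 10220077 with a signal of 489.9, lay 7880 bp from a TSS that Hr3 shares with CG46321, and it also lies within CG12912. The relative signal was 0.539 in replicate 1, 1.11 in replicate 2 and 1.31 in replicate 3, so that the first replicate was below the typical site and the other two above it. The second, at 10210827, had a signal of 196.2 and lay 520 bp from the TSS of lncRNA:CR46322. Neither was among the strongest peaks of all 3 replicates.

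Hr4 encodes a nuclear receptor that represses early genes, and its introns held 4 IDR summits (FBgn0264562, chrX:1941940-2007956, plus strand, 2 TSSs). Of its 6 summits in reach the strongest, at 1940181 with a signal of 1090.2 and rank 481, lay 126 bp from the TSS of CG3587 and 1759 bp upstream of Hr4. The relative signal was 2.75 in replicate 1, 2.83 in replicate 2 and 2.43 in replicate 3, well above the typical site in each. The strongest inside the gene, at 1947727 with a signal of 754.1, lay in the first 10 kb of the gene, 5787 bp downstream of a TSS. It had 1.59 in replicate 1, 1.59 in replicate 2 and 1.92 in replicate 3. The summit 2005990, in the 3′ UTR, had a signal of 661.6 and relative signals of 1.32 in replicate 1, 1.17 in replicate 2 and 1.72 in replicate 3. The printed intron summit 1953124 had a signal of 395.6, and the remaining intron summits 1951890 and 1973269 had 365.8 and 274.9. No IDR summit lay within 500 bp of an Hr4 TSS.

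ftz-f1 encodes an orphan nuclear receptor that makes mid-prepupal tissue competent for the next ecdysone pulse and, in the early embryo, is a partner of Fushi tarazu (FBgn0001078, chr3L:18750607-18801309, minus strand, 3 TSSs). It had 1 IDR summit, at 18801521, 212 bp upstream of its 5′-most TSS and 209 bp from that of lncRNA:CR45939. The signal was 363.7, with a relative signal of 0.846 in replicate 1, 0.768 in replicate 2 and 0.807 in replicate 3. The replicates lie close together and slightly under the typical site. No IDR summit lay inside the gene.

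Ordered by the mean relative signal of the strongest summit in reach, EcR with 29.6 ± 4.43 was followed by Hr4 with 2.67 ± 0.213, Eip78C with 2.29 ± 0.0126, Eip74EF with 2.11 ± 0.130 and Eip75B with 1.60 ± 0.259. Below them came Hr3 with 0.988 ± 0.402, usp with 0.938 ± 0.171, ftz-f1 with 0.807 ± 0.0388 and br with 0.574 ± 0.188 (SD, n = 3 replicates each). The replicate values of neighbours in this order overlapped between Hr3 and usp and between usp and ftz-f1. For Hr4, Eip78C and Eip74EF the summit concerned is at the promoter of another gene. With summits inside the genes alone, Hr4 had 1.70 ± 0.190 and Eip75B 1.60 ± 0.259, which overlap, Eip74EF had 0.942 ± 0.202, and Eip78C had 0.591 ± 0.0655.

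The threshold values can be seen at both edges. Just inside the IDR list were EcR 6160612 with a signal of 195.7 and Hr3 10210827 with 196.2, and just outside it were a summit 792 bp upstream of Hr3 with 189.2 and rank 7400 and an Eip75B intron summit at 17989441 with 183.4 and rank 7577. This Hr3 summit outside the list had a match in replicate 3 alone, at rank 6031. The Eip75B summit 17989441 had rank 13147 in replicate 1, no match in replicate 2 and rank 5726 in replicate 3. By distance, the Ilk promoter summit at 9734 bp from Eip78C was just inside 10 kb. Just outside were an IDR summit 12242 bp from Eip75B with a signal of 255.8 and one 14268 bp from Hr4 with 297.7, at the promoter of CG11596. In the pooled list of 30000 summits the members had 194, or 27.3 per 100 kb (23.6 to 31.4), beside 24.3 for all protein-coding genes (24.0 to 24.6). The replicate lists gave 189, 198 and 201 summits in replicates 1, 2 and 3.

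Other genes of the pathway were described from 5 lists, chosen with results of these data already known. Of their 76 matched genes, 36 (47.4%) were bound at a promoter by the same rule, beside 42.1% of all protein-coding genes. Among cofactors of the receptor it was 14 of 16, with a median strongest signal in reach of 753.0, beside 683.1 over all genes with an IDR summit. The strongest were alien, also called CSN2, with 1537, ash2, a trithorax group gene, with 1149, and skd, a subunit of the Mediator complex, with 1026. Among genes of hormone synthesis and breakdown it was 3 of 12. The strongest in reach were spo with 1079, ecd with 828.6 and dib with 782.5, where spo and dib encode cytochrome P450 enzymes of the synthesis, and these 3 summits were nearer to a TSS of another gene. Among other genes named for their response to the hormone it was 12 of 29, with the zinc finger gene crol at 4701, the initiator caspase gene Dronc at 1368 and Kr-h1, a factor of juvenile hormone action, at 1151. The crol summit lay 55 bp from a crol TSS, had rank 12 in the IDR list and had ranks 14, 11 and 12 in the replicates. Among other nuclear receptors it was 5 of 14, led by ERR with 1638, eg with 1095 and Hr83 with 766.1, and among genes of transport and upstream signals 2 of 5, led by Smox with 1712, Ptth with 1017 and tor with 685.6. For alien, Dronc and ERR the summit given was at a promoter of the gene, but a TSS of another gene was nearer (CG18661, CG6685 and Atg18a). The summits given for ash2, Kr-h1, eg, Hr83, Smox, Ptth and tor lay over 2 kb from the gene's own TSSs and nearer to a TSS of another gene.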

How the data were processed

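Stwl-GFP ChIP-seq peak lists of 3 biological replicates, the pooled list and the IDR list were used. Per the deposited text files beside the lists, each replicate list was called against a control library, and the IDR list was derived from the replicate and pooled lists. Not given in the sources used here are the aligner, the peak caller, any software version and the cut-off of the IDR step. Each deposited list gives a signal value per peak on the authors' own scale, a −log10 q-value and a summit offset. All 7241 IDR peaks are the strongest 7241 of the 30000 in the pooled list. The lists hold no read depth, which is unknown. Wilson and exact Poisson intervals (95%) cover counting error only.

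Coordinates are dm6, per the labels, counted from 1. Genes and TSSs came from Ensembl release 115 (BDGP6.54), and all 29997 pooled peaks on the main arms lay within the arm lengths of the Release 6 reference. Summits were assigned to genes with Python 3.11.15, pandas 2.3.3 and numpy 2.4.6, and the assignment was checked on data with known answers. A promoter summit lay within 500 bp of a TSS. Replicate signals were divided by the median signal of the replicate's peaks within 150 bp of IDR summits (65.2, 83.5 and 278.8 in replicates 1, 2 and 3). Motif letters were looked for in both orientations, up to 100 bp from each summit.

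The members, gene lists and motifs were chosen with earlier results of these data known. All 10 members are named, with full values for their strongest summits, for likeness to EcR the 3 genes with the next strongest intronic summits, and up to 3 genes per pathway list by signal. TGGCGCC and the 8-mers were chosen after the windows were seen, as were kirre, CG1677, hth, bbg and bun. Of 78 listed pathway genes 76 matched the annotation, and phm and EcI were not analysed here. Samples fall in 1 group, so no comparison between conditions was made.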

Additional observations from a re-analysis of the deposited data

How the results depend on the processing

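Of the alternatives, 70 values stayed near those reported and 26 moved. For counts, near meant within a factor of 1.5. Some of the 70 could not fall. With a replicate left out, the count of summits found in every replicate asks for a match in the others only. It therefore cannot fall below the reported 17, and it repeats the count of summits under the same setting. Among the counts called near is a setting that kept summits only where the nearest protein-coding TSS was the member's own. It left 26 of the 37 summits, with 0 at Eip78C and 1 at br. Above the median signal of the IDR list the members had 12 summits, or 1.69 per 100 kb, of which 11 were matched in all 3 replicates, and 0 summits at 0 members were left within 500 bp of a TSS of the member itself. The 17 summits matched in all 3 replicates gave 2.39 per 100 kb. With each replicate left out in turn and IDR summits required among the strongest of both others, 18 to 24 summits (2.53 to 3.37 per 100 kb) remained. A match within 50 bp left 10 summits in all 3 replicates, and all peaks of each list gave 35. With the 5′-most TSS of each gene alone, 2 promoter summits at 2 members remained. Divided by the median of all peaks of a list, the mean relative signal was 114.95 for EcR, 10.1 for Hr4, 8.74 for Eip78C, 8.07 for Eip74EF, 6.23 for Eip75B, 3.95 for Hr3, 3.51 for usp, 3.08 for ftz-f1 and 2.17 for br, in the same order. Stricter settings keep fewer summits, the use of all peaks of each list allows more matches, and a change of divisor rescales the relative signals. No further cause of these shifts was tested. No paired analysis was possible because only 1 group is labelled. Peaks have no depth behind them in these lists, so a gene without an IDR summit, such as Eip93F, was not detectably bound at this threshold, and a summit in reach of several genes is counted for each.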
